A study of Mus musculus with 18 samples.

Results

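Hepatic glucose output and its control by glucose and insulin were followed through 9 genes, Pck1, Fbp1, Slc37a4, Slc2a2, Gckr, Insr, Irs2, Foxo1 and Ppargc1a, chosen by name for their known roles and with earlier results of these data known. All 9 were found by symbol among the 56691 genes of the table, and all 9 passed the low-count filter that left 14595 genes for testing. Liver RNA of wild-type mice of the C57BL/6 strain was sequenced, with 6 libraries in each of 3 groups. In the IR-Ori group the portal triad was closed with clips for 1 h, which made the median and left lobes, about 70% of the liver, ischemic. The liver was then reperfused for 6 h, and these mice were given oridonin. The IR group had the same ischemia and reperfusion without oridonin. The sham group had anaesthesia, skin disinfection and laparotomy with no clip. Oridonin is a diterpenoid from the herb Isodon rubescens, but the sources used here give neither its dose nor its route and time. The age, sex and feeding state of the mice are likewise not stated. Nor is it stated whether each library is a separate animal, so the p-values reflect the spread of these libraries, which may be technical.

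The liver supplies blood glucose between meals by making it from lactate, glycerol and amino acids. The final steps need export of glucose 6-phosphate into the endoplasmic reticulum, its dephosphorylation and release of glucose. Glucagon, acting through cAMP, and glucocorticoids raise transcription of the gluconeogenic genes together with the factor FOXO1 and its coactivator PGC-1alpha, the product of Ppargc1a. Insulin opposes this through its receptor, the adaptor IRS2 and the kinase AKT, which moves FOXO1 out of the nucleus. Hepatocytes sense glucose by taking it up through the low-affinity carrier GLUT2, the product of Slc2a2, and by phosphorylating it, a step that the regulatory protein encoded by Gckr restrains when glucose is low.

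Libraries held 12770586 to 16536186 counts in IR-Ori, 12449529 to 16625908 in IR and 12755980 to 19798188 in sham. The 9 genes had at least 58 counts in every library, the lowest being Ppargc1a, and at most 76218, the highest being Pck1. The share of counts on the mitochondrial chromosome ran from 6.52% to 42.9% in single libraries and averaged 27.1 ± 6.60% in IR-Ori, 19.2 ± 12.99% in IR and 21.9 ± 12.9% in sham (SD, n = 6). None of the 3 differences passed the test, and the largest, that of IR-Ori from IR, was larger than the SD of IR-Ori and smaller than that of IR (exact permutation test of 6 against 6, two-sided, p = 0.212 for IR-Ori against IR, 0.370 for IR-Ori against sham and 0.712 for IR against sham). Levels are given as FPKM, the authors' counts divided by exon length and by a library total that includes the mitochondrial counts. Fold changes come from counts scaled between libraries. Hepatocyte markers were high in all 18 libraries, and none of the 7 passed the test in any comparison. Their summed level was 26364 to 40145 FPKM in IR-Ori, 22347 to 31626 FPKM in IR and 13773 to 46535 FPKM in sham. Neutrophil markers summed to 7.50 to 60.8 FPKM in IR-Ori, 61.6 to 296 FPKM in IR and 3.83 to 26.0 FPKM in sham. Monocyte and recruited macrophage markers summed to 5.93 to 22.2 FPKM in IR-Ori, 17.95 to 93.7 FPKM in IR and 5.49 to 23.5 FPKM in sham. Kupffer cell, stellate and erythroid lists had no marker called in any comparison. The cholangiocyte list had 1 of 5 lower in IR-Ori against IR and 1 of 5 higher in IR against sham. Of the pancreas markers, Ins1, Ins2 and Prss1 were at 0 in all libraries, and the fourth, Cela1, had at most 4.08 FPKM in IR-Ori, 10.87 FPKM in IR and 7.99 FPKM in sham, with no call. Of the 3 kidney markers Kap was at 0, and their sum was at most 0.1 FPKM in any library. In these bulk samples, fewer hepatocytes and less RNA per hepatocyte cannot be told apart.

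In livers after ischemia and reperfusion, Slc2a2 fell, and no other of the 9 genes passed the test. The call rests on edgeR's quasi-likelihood test with Benjamini-Hochberg adjustment over all genes and a threshold of 0.05, as do all calls here unless another test is named. With 1 of 9 genes called, the share can be set beside the 7.89% of all 14595 genes that were called in IR against sham, of which 5.52% were higher and 2.36% lower. The median log2 fold change of the 9 genes was -0.20, and that of all genes tested was 0.00. An unadjusted p under 0.05 was met by 3 of the 9 in that comparison and by 23.5% of all genes. With oridonin, none of the 9 passed the test in IR-Ori against IR, where 3.6% of all genes were called, 0.596% higher and 3.01% lower. An unadjusted p under 0.05 was met by 4 of the 9 there, Gckr, Insr, Irs2 and Slc2a2, against 24.2% of all genes, and DESeq2 called 1 of them, Gckr, against 9.15% of all genes. DESeq2 gave no adjusted p for Irs2 in any of the 3 comparisons, so it could not call that gene. The median of the 9 was 0.24 in that comparison and 0.00 over all genes. None of the 9 was called in IR-Ori against sham, where edgeR called 0% of all genes, DESeq2 0.26% (38 genes) and limma on log2(FPKM + 1) none. An unadjusted p under 0.05 was met there by 2 of the 9 and by 10% of all genes (1460). The comparisons share libraries, the IR libraries being in both of the first, so their fold changes are not independent of each other.

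**Figure D1:**
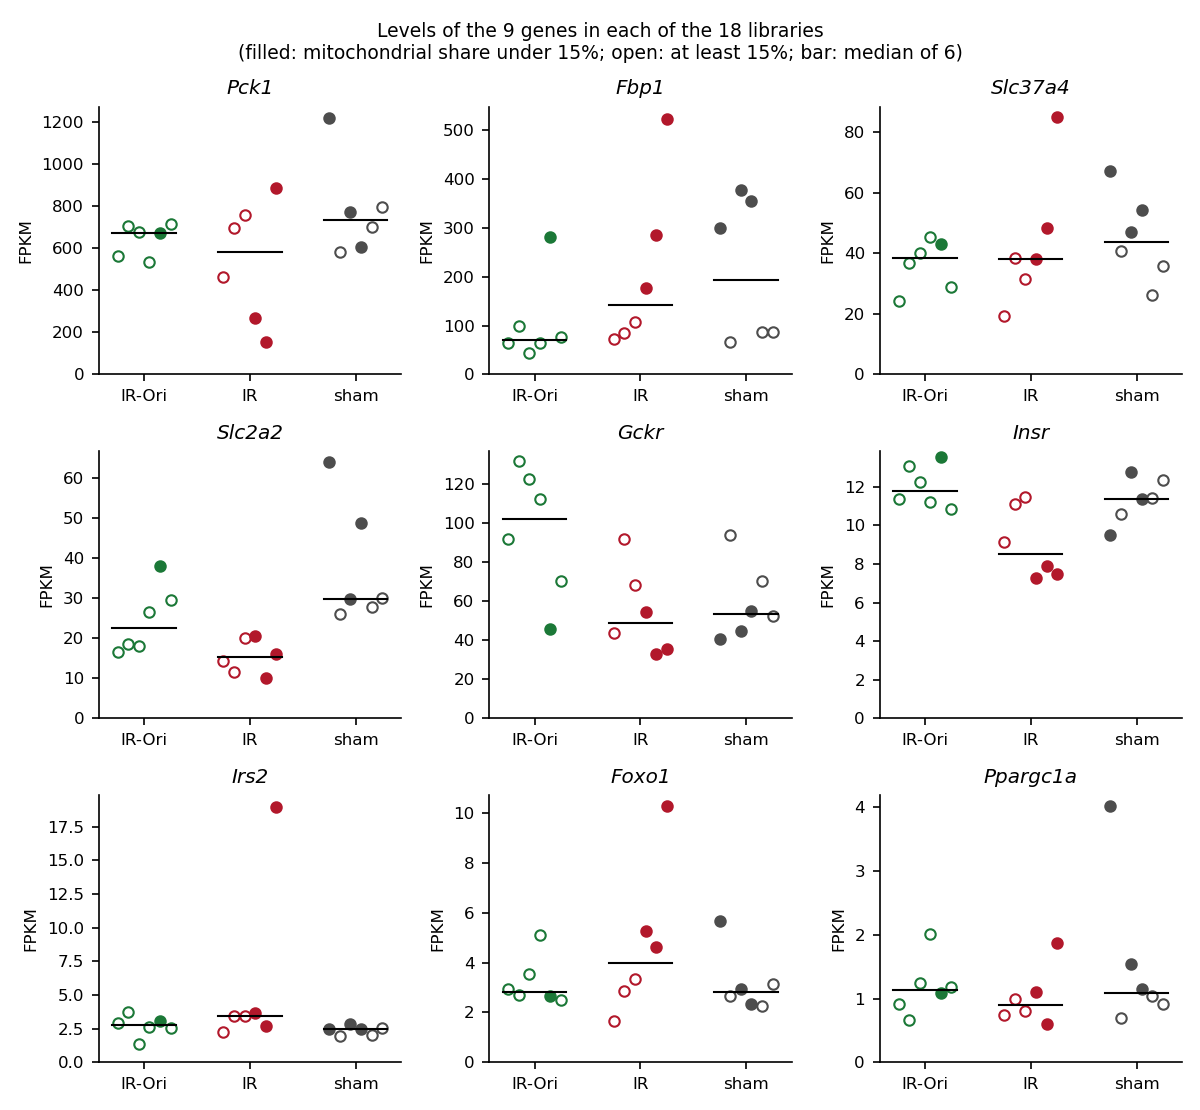
FPKM (vertical axes, linear, from 0) of the 9 genes in each of the 18 libraries, with IR-Ori on the left, IR in the middle and sham on the right of each panel, bars at the median of 6 libraries, filled points for a mitochondrial share of counts under 15% and open points for at least 15%. Slc2a2 is the gene whose IR points, 9.99 to 20.5 FPKM, all lie under its sham points, 26.0 to 63.9 FPKM, and single high points stand out for Irs2 and Foxo1 in IR and for Pck1 and Ppargc1a in sham.

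Slc2a2 (ENSMUSG00000027690, chr3:28752052-28785508, plus strand, build GRCm39, protein-coding) encodes GLUT2, the carrier through which glucose enters and leaves the hepatocyte. Its level was 16.5 FPKM at the lowest, 22.5 at the median and 37.9 at the highest in IR-Ori, against 9.99, 15.2 and 20.5 FPKM in IR and 26.0, 29.8 and 63.9 FPKM in sham. All 6 IR libraries were under all 6 sham libraries, on the FPKM scale and on the scale of scaled counts, a separation in either direction that 3.17% of all genes showed in IR against sham, with 1.13% lower as here. IR-Ori lay between, overlapping both groups. On the FPKM scale its 3 lowest libraries were within the range of IR and its 3 highest within that of sham. Slc2a2 averaged 15.4 ± 4.33 FPKM in IR and 37.7 ± 15.3 FPKM in sham (SD, n = 6 each), 2.51-fold lower in IR (log2 fold change -1.33 ± 0.29 SE, edgeR adjusted p = 0.0104). Leaving out any 1 of the 12 libraries gave log2 fold changes of -1.46 to -1.15 with adjusted p of at most 0.0266. With oridonin it averaged 24.5 ± 8.37 FPKM (SD, n = 6), 1.62-fold that of IR (log2 0.70 ± 0.29, edgeR adjusted p = 0.153) and 0.645-fold that of sham (log2 -0.63 ± 0.29, edgeR adjusted p = 0.498), neither past the threshold.

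The fall of Slc2a2 was followed at both ends of the mitochondrial share. Among libraries with a share under 15%, 3 of each group, it had 9.99 to 20.5 FPKM in IR and 29.7 to 63.9 FPKM in sham (log2 -1.73 ± 0.41, edgeR adjusted p = 0.0349). Among those with at least 15%, again 3 of each, it had 11.6 to 20.2 FPKM in IR and 26.0 to 29.9 FPKM in sham. It was no longer called there (log2 -0.90 ± 0.28, edgeR adjusted p = 0.254), in a fit where 14 of all genes were. That neither subset overlapped follows from the separation of the whole groups and is no further support. Neutrophil markers moved with the same contrast, all 6 of them higher in IR than in sham with a median log2 fold change of 3.41. So did 4 of the 5 monocyte and recruited macrophage markers tested, while the median of the hepatocyte markers was -0.17. The part of these cells in the result was not tested.

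The promoter of Slc2a2 is shown because this is the gene that was called, and that of Gckr because it came nearest to the threshold with oridonin. Those of Pck1 and Ppargc1a are shown because their control by cAMP is a textbook example of transcription in fasting. Each line gives the 250 bases before the start of the gene, from RefSeq on build GRCm38.p6 and on the strand of the gene. Capitals mark a match to 1 of 6 motifs searched on both strands: the full cAMP response element TGACGTCA, its half-site CGTCA (on the other strand TGACG), the forkhead element GTAAACA, the E-box CACGTG, the nuclear receptor half-site AGGTCA and the TATA box TATAAA. The full element contains the half-site. Positions count back from the start, with -1 for the base before it.
Slc2a2: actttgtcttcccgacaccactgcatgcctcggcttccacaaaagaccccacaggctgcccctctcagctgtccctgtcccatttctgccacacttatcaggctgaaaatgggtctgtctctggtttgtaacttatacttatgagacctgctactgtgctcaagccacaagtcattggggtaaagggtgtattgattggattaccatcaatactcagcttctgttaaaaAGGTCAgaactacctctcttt
Gckr: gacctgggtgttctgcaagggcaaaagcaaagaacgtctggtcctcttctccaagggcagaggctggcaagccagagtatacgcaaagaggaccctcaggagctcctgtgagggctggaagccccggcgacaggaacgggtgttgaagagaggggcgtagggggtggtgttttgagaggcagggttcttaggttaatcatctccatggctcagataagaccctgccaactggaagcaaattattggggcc
Pck1: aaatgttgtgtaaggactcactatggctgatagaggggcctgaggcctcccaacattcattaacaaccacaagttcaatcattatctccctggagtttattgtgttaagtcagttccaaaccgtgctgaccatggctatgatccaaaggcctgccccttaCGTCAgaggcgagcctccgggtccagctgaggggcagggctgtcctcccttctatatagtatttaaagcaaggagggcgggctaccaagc
Ppargc1a: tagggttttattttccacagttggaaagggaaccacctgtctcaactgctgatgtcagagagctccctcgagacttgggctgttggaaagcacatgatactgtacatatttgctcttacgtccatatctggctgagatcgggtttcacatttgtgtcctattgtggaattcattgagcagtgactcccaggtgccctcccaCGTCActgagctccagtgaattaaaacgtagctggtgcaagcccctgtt
The windows lie at chr3:28697653-28697902 (Slc2a2, plus strand), chr5:31297313-31297562 (Gckr, plus strand), chr2:173152823-173153072 (Pck1, plus strand) and chr5:51567726-51567975 (Ppargc1a, minus strand). Slc2a2 has AGGTCA at -21 to -16, Pck1 has CGTCA at -90 to -86, Ppargc1a has CGTCA at -49 to -45, and Gckr has none of the 6. The table holds 10 windows for 8 of the 9 genes, since Slc37a4 has 3 listed starts, of which the windows of the first 2 overlap and share a half-site. The cAMP half-site was in 4 of these windows (1 of Pck1, 1 of Ppargc1a and 2 of Slc37a4), AGGTCA in 2 (Slc2a2 and 1 of Slc37a4), CACGTG in 1 (Irs2) and TATAAA in 1 (Slc37a4). The full cAMP element and the forkhead element were in 0. The shares of all 32851 windows of that length were 17.8% for the half-site, 14.0% for AGGTCA, 6.02% for CACGTG, 12.4% for TATAAA, 1.55% for the full cAMP element and 3.17% for the forkhead element. A match is a stretch of letters only, and binding was not measured.

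By the mean absolute difference of log2 counts per library total (CPM) over the 18 libraries, each gene centred on its own mean, the 3 protein-coding genes nearest to Slc2a2 among 12510 compared were Cyp2c23, Ghr and Mgam. Their distances were 0.248, 0.269 and 0.285, and the median over the 12510 genes was 0.696. Cyp2c23 encodes a cytochrome P450, Ghr the growth hormone receptor and Mgam the disaccharide-splitting maltase-glucoamylase. Since nearness to Slc2a2 chose them, their differences between groups are given as a description: Cyp2c23 averaged 107 ± 32.9 FPKM in IR-Ori, 67.7 ± 15.5 in IR and 135 ± 40.4 in sham, and Ghr 24.4 ± 12.3 FPKM in IR-Ori, 19.9 ± 4.75 in IR and 38.1 ± 17.1 in sham (SD, n = 6 each). Mgam was lower throughout, at 6.24 ± 1.68 FPKM in IR-Ori, 4.04 ± 1.39 in IR and 7.998 ± 1.67 in sham.

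**Figure D2:**
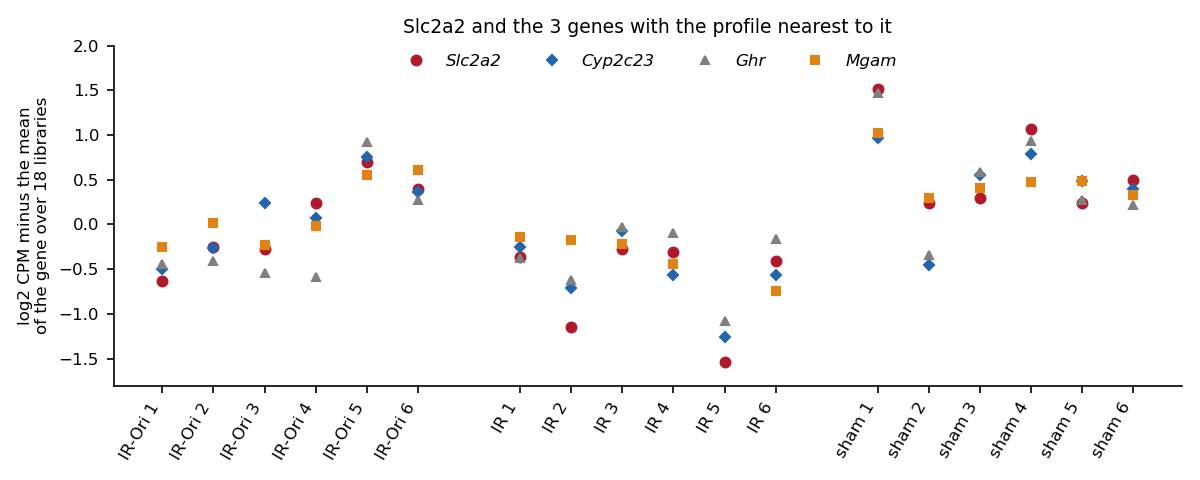
Log2 scaled CPM of Slc2a2, Cyp2c23, Ghr and Mgam minus the mean of each gene over the 18 libraries (vertical axis), 1 column of points per library, with IR-Ori on the left, then IR, then sham. The 6 IR columns of all 4 genes lie under 0, with IR 5 the lowest column for each, and sham 1 is the highest column for each. The value of Mgam in IR 5, -1.97, is under the lower end of the axis and is not drawn.

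Gckr (ENSMUSG00000059434, chr5:31454787-31484658, plus strand, GRCm39) encodes a protein that restrains the phosphorylation of glucose in hepatocytes. Its level was 45.7 FPKM at the lowest, 102 at the median and 132 at the highest in IR-Ori, against 33.0, 48.9 and 91.7 FPKM in IR and 40.9, 53.6 and 93.6 FPKM in sham. In IR-Ori, 4 of the 6 libraries were above every IR library, and the lowest, IR-Ori 5, was also the only 1 of its group with a mitochondrial share under 15%. Gckr averaged 95.8 ± 33.0 FPKM in IR-Ori and 54.4 ± 22.4 FPKM in IR (SD, n = 6 each), a 1.85-fold difference that did not pass (log2 0.89 ± 0.30, edgeR adjusted p = 0.0957). DESeq2 placed the same difference past the threshold (log2 0.91, adjusted p = 0.0432), and so did edgeR without IR-Ori 5 (log2 1.04, adjusted p = 0.0454). Within groups, Gckr was higher in libraries with a larger mitochondrial share, by 0.33 ± 0.10 on the log2 scale per 10 percentage points (edgeR adjusted p = 0.0118), a call lost without sham 2 (adjusted p = 0.0524). With that share as a covariate, IR-Ori exceeded IR by 0.61 ± 0.26 on the log2 scale (edgeR adjusted p = 0.199), and the part of the share in the difference was not tested further. Against sham, IR-Ori gave 0.68 ± 0.30 (edgeR adjusted p = 0.498), and IR against sham gave -0.20 ± 0.30 (adjusted p = 0.731).

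Among the other carriers, kinases and sensors of glucose, a list of 17 genes of which 15 were tested, 3 rose and 2 fell in IR against sham, with a median log2 fold change of 0.28, and 0 rose and 3 fell in IR-Ori against IR, with a median of -0.08. Beside these stand the 7.89% and 3.6% of all genes called in the 2 comparisons. The genes that rose after ischemia were the carrier Slc2a1, which encodes GLUT1, and the high-affinity hexokinases Hk1 and Hk2, all of which are low in healthy hepatocytes. Slc2a1 had 2.40 to 4.95 FPKM in IR-Ori, 5.02 to 15.5 FPKM in IR and 2.59 to 5.02 FPKM in sham, so that IR-Ori and IR did not overlap, as for 1.1% of all genes in that direction, and IR met sham at a single value. It rose in IR against sham (log2 1.32 ± 0.27, edgeR adjusted p = 0.0067) and fell in IR-Ori against IR (log2 -1.50 ± 0.27, adjusted p = 0.0069). Hk1, at no more than 0.71 FPKM in any library, gave 1.10 ± 0.32 in IR against sham (edgeR adjusted p = 0.0400) and -1.17 ± 0.32 in IR-Ori against IR (adjusted p = 0.0477). Hk2 gave 1.48 ± 0.43 in IR against sham (adjusted p = 0.0389). The genes that fell after ischemia were Pklr, the liver pyruvate kinase of glycolysis (log2 -1.65 ± 0.37, edgeR adjusted p = 0.0113), and Slc2a9, a urate and hexose carrier (log2 -1.05 ± 0.26, adjusted p = 0.0168). Pklr had 5.13 to 11.5 FPKM in IR and 6.48 to 47.5 FPKM in sham. Arrdc4, an arrestin-domain gene induced by glucose, fell in IR-Ori against IR (log2 -0.94 ± 0.25, edgeR adjusted p = 0.0422). The calls of Hk1, Hk2 and Arrdc4 were each lost on leaving out any of 8 or 9 of the 12 libraries compared. The adjusted p then reached 0.107 for Hk1 and 0.0914 for Hk2 in IR against sham, and 0.132 for Hk1 and 0.114 for Arrdc4 in IR-Ori against IR. Slc2a1, Pklr and Slc2a9 kept their calls without any 1 library. Slc2a1 was lower with a larger mitochondrial share within groups (-0.26 ± 0.09 on the log2 scale per 10 percentage points, edgeR adjusted p = 0.0218), and with that share as a covariate it gave 1.196 in IR against sham and -1.22 in IR-Ori against IR, both still called. With the covariate, Hk1 and Arrdc4 were no longer called in IR-Ori against IR (log2 -1.08 and -0.94, edgeR adjusted p = 0.0973 and 0.0627). Hk1, Hk2, Pklr and Slc2a9 kept their calls in IR against sham. Slc2a1 is also expressed in blood cells and endothelium, and 3 of 5 endothelial markers were higher in IR than in sham. Their part in the result was not tested.

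Pck1 (ENSMUSG00000027513, chr2:172994841-173001066, plus strand, GRCm39) encodes the cytosolic phosphoenolpyruvate carboxykinase, the committed step of gluconeogenesis, and had the highest level per length of the 9 genes. Its level was 534 FPKM at the lowest, 674 at the median and 713 at the highest in IR-Ori, against 154, 580 and 887 FPKM in IR and 582, 736 and 1218 FPKM in sham. The groups overlapped, and IR spread the most. On the FPKM scale, IR 5, IR 4 and IR 1, at 154, 268 and 464 FPKM, were under every library of the other groups. IR 3 and IR 6 were above every IR-Ori library on that scale. On the scale of scaled counts, only IR 5 and IR 4 were under every library of the other groups, and only IR 6 was above every IR-Ori library. Pck1 averaged 644 ± 76.1 FPKM in IR-Ori, 537 ± 289.98 FPKM in IR and 779 ± 232 FPKM in sham (SD, n = 6 each). The log2 fold changes were 0.27 ± 0.36 in IR-Ori against IR and -0.55 ± 0.36 in IR against sham (edgeR adjusted p = 0.664 and 0.378).

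Fbp1 (ENSMUSG00000069805, chr13:63012567-63036096, minus strand, GRCm39) encodes the fructose bisphosphatase that reverses the phosphofructokinase step. It had 44.7 FPKM at the lowest, 71.3 at the median and 281 at the highest in IR-Ori, against 71.6, 142 and 524 FPKM in IR and 65.7, 194 and 378 FPKM in sham. Within each group its libraries fell into a high and a low set that followed the mitochondrial share. At a share under 15%, Fbp1 had 281 FPKM in the single IR-Ori library, 178 to 524 FPKM in 3 IR libraries and 301 to 378 FPKM in 3 sham libraries. At 15% or more it had 44.7 to 99.7 FPKM in 5 IR-Ori libraries, 71.6 to 107 FPKM in 3 IR libraries and 65.7 to 87.8 FPKM in 3 sham libraries, so that no library of the second set reached the first. The slope within groups was -0.75 ± 0.12 on the log2 scale per 10 percentage points (edgeR adjusted p = 0.00011), and stayed between -0.97 and -0.66 without any 1 library. Such a slope was called for 4 of the 9 genes, 1 higher (Gckr) and 3 lower (Fbp1, Slc37a4 and Foxo1). That is near the background, since 42.9% of all genes had a called slope, 19.9% higher and 23% lower with the share. Between groups, Fbp1 was not called: the log2 fold change was -0.95 ± 0.56 in IR-Ori against IR (edgeR adjusted p = 0.301), -1.01 ± 0.57 in IR-Ori against sham (adjusted p = 0.503) and -0.06 ± 0.56 in IR against sham (adjusted p = 0.962). With the share as a covariate the difference of IR-Ori from IR was -0.33 ± 0.33. Without 1 library it ran from -1.52, without IR-Ori 5, to -0.31, without IR 6, the library with the smallest share. None of these fits gave a call (edgeR adjusted p of at least 0.0846 without 1 library).

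**Figure D3:**
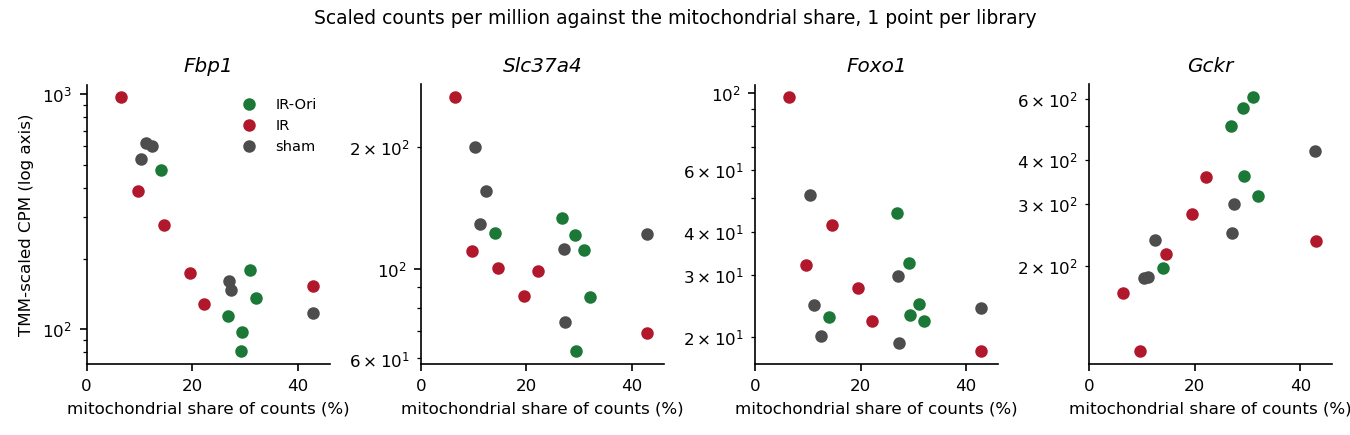
Scaled CPM (vertical axes, log scale) of Fbp1, Slc37a4, Foxo1 and Gckr against the percentage of counts on mitochondrially encoded genes (horizontal axes), 1 point per library, coloured by IR-Ori, IR and sham. Fbp1 is high in the 7 libraries with a share under 15% and low in the other 11, Gckr runs the opposite way, and the points of Slc37a4 and Foxo1 spread more widely around slopes of -0.30 and -0.33 on the log2 scale per 10 percentage points.

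Slc37a4 (ENSMUSG00000032114, chr9:44308149-44314265, plus strand, GRCm39) encodes the carrier that brings glucose 6-phosphate into the endoplasmic reticulum, where the phosphatase encoded by G6pc acts. It had 24.2 FPKM at the lowest, 38.4 at the median and 45.5 at the highest in IR-Ori, against 19.4, 38.3 and 85.1 FPKM in IR and 26.2, 43.8 and 67.1 FPKM in sham. The medians lay close together and the groups overlapped throughout. Its log2 fold changes were -0.20 ± 0.30 in IR-Ori against IR, -0.31 ± 0.30 in IR-Ori against sham and -0.12 ± 0.30 in IR against sham, with edgeR adjusted p between 0.661 and 0.856. The slope on the mitochondrial share, -0.30 ± 0.09 per 10 percentage points (edgeR adjusted p = 0.0158), was not called without IR 6 (-0.20, adjusted p = 0.0524). G6pc itself had 48.4 to 122 FPKM in IR-Ori, 19.5 to 187 FPKM in IR and 16.6 to 198 FPKM in sham, with overlapping groups and no call (edgeR adjusted p of at least 0.773 in the 3 comparisons).

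Of 22 other enzymes of gluconeogenesis listed, 21 were tested, and 0 rose and 0 fell in IR against sham, where 0 had an unadjusted p under 0.05, against the 23.5% of all genes given above, and the median log2 fold change was -0.10. In IR-Ori against IR, 0 of 21 were called, beside 3.6% of all genes, and the median was 0.08. An unadjusted p under 0.05 was met there by 5 of the 21 and by 24.2% of all genes. The nearest to the threshold there were Ldha, the lactate dehydrogenase subunit that links lactate and pyruvate (log2 -1.37 ± 0.44, edgeR adjusted p = 0.0834), and Sds, the serine dehydratase that feeds pyruvate (log2 1.01 ± 0.42, adjusted p = 0.155). Within groups, 9 of the 21 were lower and 1 was higher with a larger mitochondrial share, beside the 23% and 19.9% of all genes. Ldha was among the 9, with a slope of -0.69 ± 0.08 on the log2 scale per 10 percentage points (edgeR adjusted p = 9.3e-06), and with the share as a covariate its difference of IR-Ori from IR was -0.73 (adjusted p = 0.0716). Pyruvate carboxylase (Pcx), the mitochondrial entry step, had 30.8 to 51.7 FPKM in IR-Ori, 28.9 to 78.9 FPKM in IR and 25.5 to 56.5 FPKM in sham, with no call between groups (edgeR adjusted p of at least 0.255) and a slope of -0.29 ± 0.06 on the log2 scale per 10 percentage points of mitochondrial share (adjusted p = 0.00099). Periportal hepatocyte genes, the zone where gluconeogenesis is most active, and pericentral genes had 0 of 12 called each in IR against sham (medians -0.28 and -0.34) and in IR-Ori against IR (medians 0.09 and -0.26). All 12 pericentral genes had a negative fold change in IR against sham and in IR-Ori against sham, where their median was -0.62. The periportal genes were close to this, with 11 of 12 negative in IR against sham and 9 of 12 in IR-Ori against sham (median -0.24). Of the 7 hepatocyte markers, 6 and 7 were negative in these comparisons, so the shift was not particular to 1 zone. With a larger mitochondrial share, 6 of the 12 pericentral and 5 of the 12 periportal genes were lower.

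**Figure D4:**
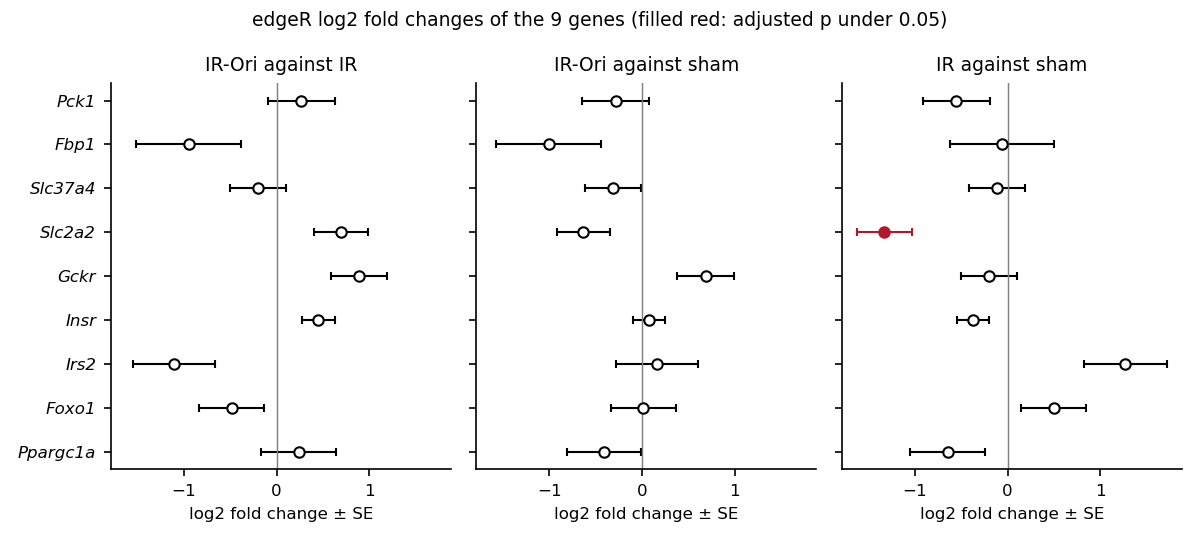
EdgeR log2 fold changes (horizontal axes) of the 9 genes with 1 standard error on each side, for IR-Ori against IR on the left, IR-Ori against sham in the middle and IR against sham on the right. The filled red point is the only call, Slc2a2 in IR against sham at -1.33, and the widest bars are those of Fbp1.

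Insr (ENSMUSG00000005534, chr8:3172061-3329617, minus strand, GRCm39) encodes the insulin receptor and had the smallest SEs of the 9 genes, 0.17 on the log2 scale in each comparison. It had 10.8 FPKM at the lowest, 11.8 at the median and 13.5 at the highest in IR-Ori, against 7.29, 8.54 and 11.5 FPKM in IR and 9.52, 11.4 and 12.8 FPKM in sham. On the FPKM scale, 4 of the 6 IR libraries were under every library of the other groups, and IR 2 and IR 3 lay among them. On the scale of scaled counts, only the 3 IR libraries with a mitochondrial share under 15% were under every library of the other groups. IR 1, with a share of 42.9%, was the highest IR library on that scale, at 158 scaled CPM against a sham median of 155. Insr averaged 12.0 ± 1.09 FPKM in IR-Ori, 9.08 ± 1.85 FPKM in IR and 11.3 ± 1.18 FPKM in sham (SD, n = 6 each). Neither difference passed, at 0.45 ± 0.17 on the log2 scale in IR-Ori against IR (edgeR adjusted p = 0.132) and -0.37 ± 0.17 in IR against sham (adjusted p = 0.203).

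Irs2 (ENSMUSG00000038894, chr8:11034681-11058458, minus strand, GRCm39) encodes the adaptor that carries the signal of the insulin receptor in liver. It had 1.40 FPKM at the lowest, 2.78 at the median and 3.71 at the highest in IR-Ori, against 2.27, 3.42 and 18.97 FPKM in IR and 1.95, 2.49 and 2.87 FPKM in sham. A single library, IR 6, carried the high end, since the next in IR had 3.66 FPKM. The log2 fold changes were -1.11 ± 0.44 in IR-Ori against IR (edgeR adjusted p = 0.143) and 1.27 ± 0.45 in IR against sham (adjusted p = 0.0852). Without IR 6 they were -0.10 and 0.27.

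Foxo1 (ENSMUSG00000044167, chr3:52175757-52260642, plus strand, GRCm39) encodes the forkhead factor that insulin signalling inactivates. It had 2.48 FPKM at the lowest, 2.83 at the median and 5.09 at the highest in IR-Ori, against 1.67, 3.99 and 10.28 FPKM in IR and 2.25, 2.82 and 5.66 FPKM in sham. IR 6 was again the highest library, and the next in IR had 5.26 FPKM. Its log2 fold changes were -0.48 ± 0.35 in IR-Ori against IR and 0.50 ± 0.35 in IR against sham (edgeR adjusted p = 0.395 and 0.417), and 0.0038 and 0.01 without IR 6. IR 6 also had the smallest mitochondrial share of the 18 libraries, and the slope of Foxo1 on that share, -0.33 ± 0.12 per 10 percentage points (edgeR adjusted p = 0.0361), was lost without IR 1, IR 6 or sham 1 (adjusted p of up to 0.149).

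Of 25 other genes of insulin signalling listed, 23 were tested, and 1 rose and 0 fell in IR against sham, with a median log2 fold change of -0.09. The share called over all genes was 7.89% in that comparison and 3.6% in IR-Ori against IR. The 1 that rose was Ptpn1, the phosphatase that removes the activating phosphates of the insulin receptor, with 3.24 to 5.23 FPKM in IR-Ori, 3.86 to 8.10 FPKM in IR and 2.85 to 4.82 FPKM in sham (log2 0.76 ± 0.20, edgeR adjusted p = 0.0232). That call was lost without IR 4, IR 6, sham 1, sham 2 or sham 5 (adjusted p of up to 0.0663). In IR-Ori against IR, 0 of 23 were called, with a median of -0.13, and the smallest p was that of Pik3cb, a catalytic subunit of phosphoinositide kinase (log2 -0.69 ± 0.22, edgeR adjusted p = 0.0817).

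Of 12 genes known as FOXO1 targets in liver, all tested, 4 rose and 1, Klf15, fell in IR against sham, with a median log2 fold change of 0.54, and 0 rose and 5 fell in IR-Ori against IR, with a median of -1.23. Over all genes, 7.89% were called in the first comparison and 3.6% in the second. Called or not, 6 of the 12 had a positive and 6 a negative fold change in IR against sham. In IR-Ori against IR, 4 were positive and 8 negative. Klf15 is also in the list of glucagon, cAMP and glucocorticoid regulators below. The 4 genes called higher in IR against sham were Gadd45a, a stress and DNA repair gene, Cited2, a transcriptional coregulator, Trib1, a pseudokinase, and Ccng2, an atypical cyclin that restrains growth. Gadd45a had 1.99 to 4.75 FPKM in IR-Ori, 6.67 to 251 FPKM in IR and 3.22 to 7.02 FPKM in sham, so that IR-Ori and IR did not overlap, as for 1.1% of all genes in that direction. It rose in IR against sham (log2 3.83 ± 0.71, edgeR adjusted p = 0.0035) and fell in IR-Ori against IR (log2 -4.20 ± 0.73, adjusted p = 0.0053). Cited2 gave 2.58 ± 0.59 in IR against sham and -2.91 ± 0.60 in IR-Ori against IR (edgeR adjusted p = 0.0118 and 0.0131). Trib1 gave 2.19 ± 0.49 in IR against sham and -2.17 ± 0.49 in IR-Ori against IR (edgeR adjusted p = 0.0113 and 0.0208). Ccng2 gave 1.70 ± 0.44 in IR against sham and -2.12 ± 0.44 in IR-Ori against IR (edgeR adjusted p = 0.0219 and 0.0146). In IR-Ori against IR, 5 of 5 monocyte and recruited macrophage markers and 1 of 6 neutrophil markers were lower too, and their part in these results was not tested.

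IR 6 was the highest IR library for each of these 4 genes. Without it, the fold changes in IR against sham were 2.47 for Gadd45a, 1.65 for Cited2, 1.17 for Trib1 and 1.08 for Ccng2 on the log2 scale, and those in IR-Ori against IR were -2.84 for Gadd45a, -1.98 for Cited2, -1.15 for Trib1 and -1.50 for Ccng2. All of these kept their calls except that of Ccng2 in IR against sham, which was also lost without sham 5 (adjusted p of up to 0.0661). The call of Trib1 in IR-Ori against IR was lost without IR-Ori 1 or IR-Ori 6 (adjusted p of up to 0.0530). Cited2 and Ccng2 were also lower with a larger mitochondrial share within groups. With that share as a covariate both kept their calls, at 2.09 and 1.41 on the log2 scale in IR against sham and at -1.95 and -1.52 in IR-Ori against IR. Gadd45a also kept its calls in both comparisons with the covariate. Trib1 kept its call in IR against sham but lost that in IR-Ori against IR (log2 -1.61 ± 0.47, edgeR adjusted p = 0.0763). The fifth gene that fell with oridonin was Pdk4, the kinase that shuts pyruvate dehydrogenase in fasting, with 0.42 to 6.84 FPKM in IR-Ori, 3.87 to 362 FPKM in IR and 0.51 to 37.9 FPKM in sham (log2 -4.51 ± 1.204 in IR-Ori against IR, edgeR adjusted p = 0.0422). Its call was lost without any of 9 of the 12 libraries, IR 6 among them, where the log2 fold change was -2.62. Pdk4 was lower with a larger mitochondrial share within groups, by -1.40 ± 0.34 on the log2 scale per 10 percentage points (edgeR adjusted p = 0.0029), and with that share as a covariate the call was lost (log2 -2.12 ± 0.86, adjusted p = 0.180). Igfbp1, a secreted binding protein that insulin represses, had 3.90 to 74.4 FPKM in IR-Ori, 34.9 to 326 FPKM in IR and 4.22 to 285 FPKM in sham, and was not called (edgeR adjusted p = 0.194 in IR-Ori against IR and 0.443 in IR against sham). Its slope on the share was -0.94 ± 0.30 (edgeR adjusted p = 0.0152).

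**Figure D5:**
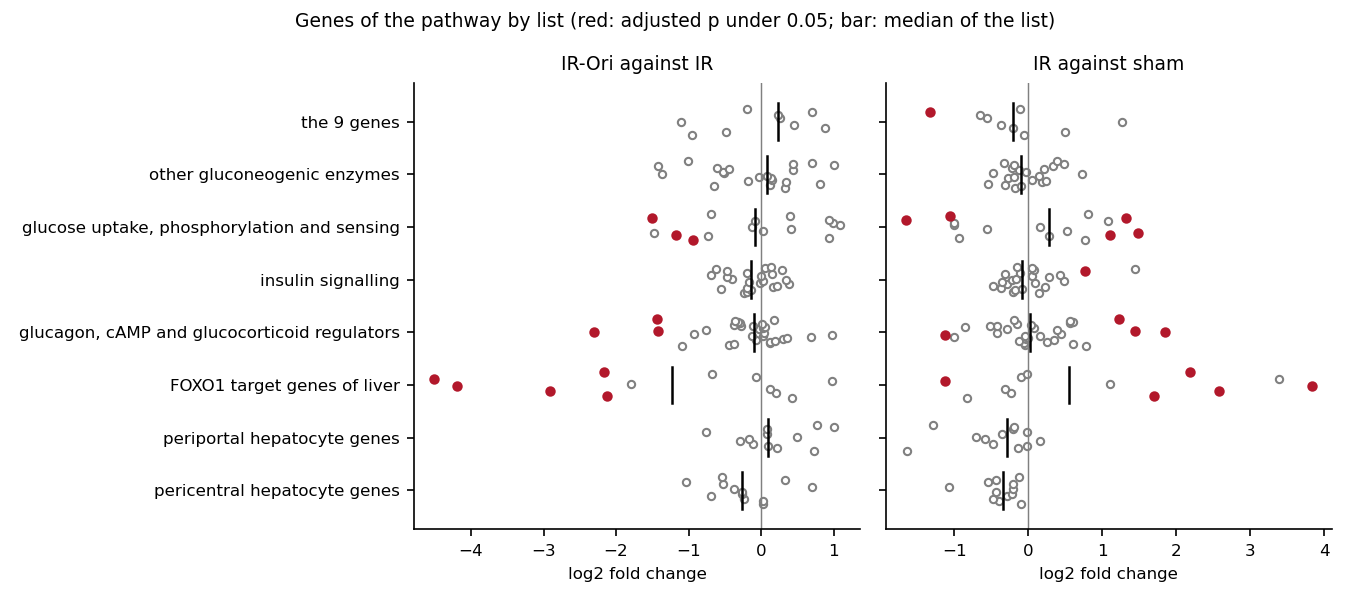
EdgeR log2 fold changes (horizontal axes) of the 9 genes and of 7 lists of related genes, 1 point per gene tested, for IR-Ori against IR on the left and IR against sham on the right, with filled red points for an adjusted p under 0.05 and a bar at the median of each list. The list of FOXO1 targets has medians of -1.23 with oridonin and 0.54 after ischemia, while those of the other gluconeogenic enzymes are 0.08 and -0.10 with no red point.

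Ppargc1a (ENSMUSG00000029167, chr5:51611592-51725068, minus strand, GRCm39) encodes PGC-1alpha, the coactivator that fasting signals induce, and had the lowest level of the 9 genes. It had 0.67 FPKM at the lowest, 1.14 at the median and 2.01 at the highest in IR-Ori, against 0.60, 0.90 and 1.87 FPKM in IR and 0.70, 1.10 and 4.02 FPKM in sham. The groups overlapped, and sham 1, at 4.02 FPKM, stood above all others. The log2 fold changes were 0.24 ± 0.40 in IR-Ori against IR and -0.65 ± 0.40 in IR against sham (edgeR adjusted p = 0.739 and 0.346), and without sham 1 the second was -0.14.

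Of 30 genes listed as glucagon, cAMP and glucocorticoid regulators, 3 rose and 1 fell in IR against sham, with a median log2 fold change of 0.02. In IR-Ori against IR, 0 rose and 3 fell, with a median of -0.09. Over all genes, 7.89% were called in IR against sham and 3.6% in IR-Ori against IR. Klf15, a glucocorticoid-induced factor that promotes amino acid use for glucose, had 37.4 to 51.6 FPKM in IR-Ori, 9.58 to 36.4 FPKM in IR and 42.2 to 64.7 FPKM in sham. On the FPKM scale all 6 IR libraries were under all 6 sham libraries, as for 1.13% of all genes. Scaled counts gave the same separation from sham. On the FPKM scale the IR libraries were also under all 6 IR-Ori libraries, with a narrow gap of 36.4 to 37.4 FPKM. The share of all genes with a gap in that direction between IR-Ori and IR was not counted. Klf15 fell in IR against sham (log2 -1.13 ± 0.28, edgeR adjusted p = 0.0176), a call kept without any 1 library. IR-Ori against IR gave 0.98 ± 0.28 (adjusted p = 0.0531), just short of the threshold. Of the 3 that rose, Nr4a1 is an immediate early orphan receptor induced by cAMP (log2 1.85 ± 0.54, edgeR adjusted p = 0.0400). Pde4b degrades cAMP (log2 1.44 ± 0.39, adjusted p = 0.0296), and Trib3 is a pseudokinase that binds AKT (log2 1.23 ± 0.38, adjusted p = 0.0490). The 3 genes fell in IR-Ori against IR, with log2 fold changes of -2.30 for Nr4a1, -1.43 for Pde4b and -1.44 for Trib3 (edgeR adjusted p = 0.0273, 0.0477 and 0.0401). Each of these 6 calls was lost on leaving out any of 6 or 8 of the 12 libraries compared, with adjusted p of up to 0.158. With the mitochondrial share as a covariate, the 3 genes were no longer called in IR-Ori against IR (edgeR adjusted p = 0.0615 for Nr4a1, 0.117 for Pde4b and 0.116 for Trib3), and Trib3 was not called in IR against sham (adjusted p = 0.05002). Leukocyte markers moved with these genes: all 6 neutrophil and 4 of 5 monocyte and recruited macrophage markers were higher in IR against sham, and 1 of 6 and 5 of 5 were lower in IR-Ori against IR. Nr4a1 and Pde4b are also expressed in leukocytes, and the part of these cells in the result was not tested. The glucagon receptor gene Gcgr had 58.7 to 285 FPKM in IR-Ori, 59.4 to 148 FPKM in IR and 96.9 to 391 FPKM in sham. It was not called in IR against sham (log2 -1.01 ± 0.44, edgeR adjusted p = 0.167) and was higher with a larger mitochondrial share within groups (0.55 per 10 percentage points, adjusted p = 0.00051).

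Whether counting used strand is not given in the sources used here. Of the 9 genes, 6 overlap another gene of the table on either strand and 3 (Pck1, Fbp1 and Gckr) overlap none. The 11 overlapping genes had at most 70 counts over the 18 libraries, and at most 2.84% of the counts of the gene they overlap, a share reached at Ppargc1a.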

How the data were processed

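RNA was sequenced from liver in 3 groups of 6 libraries, grouped by the treatment label, with 12449529 to 19798188 counts per library. Per the submitters' processing notes, the tools named are cutadapt 1.9.1, HISAT2 2.2.1 and DESeq2, the last without a version or purpose, and the build is GRCm39. The counting tool, its strand setting and the annotation are not named in those notes. In the deposited table stands a whole-number count per gene and library, not scaled by the authors, the authors' FPKM, and exonic gene sizes. Counts divided by exonic size and library total returned 100% of the deposited FPKM within 0.0051, so the total includes the 37 mitochondrially encoded genes.

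Genes passed filterByExpr (minimum count 10, minimum total 15). One edgeR 4.0.16 quasi-likelihood model (R 4.3.3, trimmed mean of M-values, group factor, 18 libraries, 15 residual degrees of freedom) gave two-sided tests, adjusted by Benjamini-Hochberg over 14595 genes at a threshold of 0.05. The SE is the log2 fold change divided by the square root of F. A second fit added the mitochondrial share. The scripts were tested on simulated data for IR against sham. Of 100 genes with a true log2 fold change of 1 in size, 24% were called in the right direction. Of 100 genes with a true change of 2, 88% were. A gene that was not called is therefore not shown to be unchanged. Alternatives used DESeq2 1.42.0, limma 3.58.1 on log2(FPKM + 1), other filters and scaling, a replicate block, subsets by mitochondrial share and each library left out. Biotypes came from GENCODE M21 by gene ID (52073 of 56691 matched), and promoters from RefSeq on GRCm38.p6 (8 of 9 genes matched).

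The genes named are the 9 genes, up to 5 called genes a list by smallest p (else the 2 nearest, of which some are given), genes fixed by name (G6pc, Pcx, Gcgr, Igfbp1 and Alb, which was not called) and the 3 profiles nearest to a called gene of the 9. Some named results are not reported here. The members and lists were chosen with earlier results of these data known. No 2 libraries were identical, and any pair within a group differed by a chi-square of at least 16.0 per gene.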

Additional observations from a re-analysis of the deposited data

Results flagged for a closer look

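Of the 27 sets of 6 libraries looked at for the 9 genes, 5 had a library far from the others, judged by the gap to its nearest neighbour as a share of the whole range of the group and Dixon's 95% limit, and chance flags about 1 in 20 such sets. Sham 1 was far above the rest for 3 genes: Pck1 had 1218 FPKM there and 797 FPKM in the next sham library, Ppargc1a 4.02 and 1.55 FPKM, and Foxo1 5.66 and 3.15 FPKM. IR 6 had 18.97 FPKM of Irs2, against 3.66 FPKM in the next IR library. IR-Ori 5 had 281 FPKM of Fbp1, against 99.7 FPKM in the next IR-Ori library.

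IR-Ori 5 also stood apart in its mitochondrial share of counts, 14.1% (95% Wilson interval 14.09% to 14.13%, counting error only), while the next library of the group had 26.8% and the highest 32.0%.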

How the results depend on the processing

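The fall of Slc2a2 in IR against sham kept its call in every alternative except in libraries with a mitochondrial share of at least 15%, where 0 of the 9 genes were called. Counts over all genes depended more on the setting. In IR against sham, 1151 genes were called, and 1818 with DESeq2, 594 with limma on log2(FPKM + 1), 602 with a pseudocount of 0.1, 367 with limma and no filter, 1875 with the mitochondrial share as covariate, 644 with the replicate block, 14 at a share of at least 15%, and 581 to 1560 without 1 library (581 without IR 4, 619 without IR 5, 758 without sham 5). In IR-Ori against IR, 526 genes were called, and 1335 with DESeq2, 133, 104 and 68 with those 3 limma settings, 290 with the covariate, 172 with the 2 groups alone, 163 with the replicate block, 15 and 10 at a share of at least 15% and under 15%, and 152 to 1056 without 1 library. Of the 9 genes, DESeq2 called 1 there, and leaving out 1 library gave 0 to 1. In IR-Ori against sham DESeq2 called 38 genes. Slopes on the share were called for 2 to 6 of the 9 genes without 1 library, 2 without IR 6.

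Signs turned round, with no call on either side, for Fbp1 in IR against sham (-0.70 to 0.16 without 1 library, 0.074 at a share of at least 15%) and Foxo1 and Slc1a2 in the same comparison (-0.13 and 0.022 at a share of at least 15%). In IR-Ori against IR they turned for Slc37a4 (0.11 with the covariate, 0.30 at a share of at least 15%, -0.28 to 0.19 without 1 library), Foxo1 (0.41 at a share of at least 15%, -0.63 to 0.0038 without 1 library) and Ppargc1a (-0.075 under 15%). In IR-Ori against sham they turned for Ppargc1a (0.41 at a share of at least 15%, -0.66 to 0.12 without 1 library), Slc37a4 (0.0040 at a share of at least 15%), Foxo1 (-0.49 under 15%, -0.19 to 0.24 without 1 library), and, under 15%, Gckr (-0.039), Sds (-0.47) and Sdsl (-0.23). The slope of Pck1 ran from -0.11 to 0.078. The causes were not tested.

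The share settings for the 2 comparisons with IR-Ori, the leave-one-out fits of the slope and its fit without mitochondrial counts were chosen after seeing the data, and IR-Ori has a single library under 15%, assumed there to vary like the other groups. Replicate numbers come from the sample titles, which name no pairs. Of 18 same-numbered pairs, 6 correlated above 0.1 (range -0.44 to 0.42), and 2 libraries matched their own number best. Pairs of IR-Ori and IR ran from 0.012 to 0.42, and all negative values were in pairs with sham. The mitochondrial share in IR also fell with the number, from 42.9% in IR 1 to 6.52% in IR 6. Whether the numbers carry an order or a pairing is not known. With 6 libraries a group and a common biological coefficient of variation of 0.398, differences of Ppargc1a near its SE of 0.40 were not detectable.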
